A study of Brassica napus with 2 samples.

Results

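The *IAA17* orthologs of *Brassica napus* (rapeseed, an allotetraploid with an A and a C subgenome) were the 6 *Aux/IAA* genes that the study assigned to the *Arabidopsis* gene AT1G04250, out of 119 *Aux/IAA* genes. They form 3 homeologous pairs, each with a copy from the A subgenome (An) and a copy from the C subgenome (Cn). These are *BnaA08.IAA.4* (BnaA08g27770D) with *BnaCX.IAA.3* (BnaCnng41350D), *BnaA09.IAA.6* (BnaA09g50590D) with *BnaC08.IAA.6* (BnaC08g43830D), and *BnaA10.IAA.3* (BnaA10g02500D) with *BnaC05.IAA.3* (BnaC05g02370D). The chromosome stands in the gene name, and *BnaCX.IAA.3* lies on C sequence not placed on a chromosome. All 6 had values in the expression table, which holds 63193 genes.

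The RNA came from whole seedlings 30 days old, and 10 seedlings were pooled for each of 2 libraries. The IAA library was made after 3 h in liquid medium with 1 μM indole-3-acetic acid (IAA), a naturally occurring auxin. The control library had 0 μM IAA for the same 3 h, in medium by the methods of the study and in water by the sample label. The cultivar of the seedlings is not given in the sources used here. Since each condition has 1 library, the spread between replicate pools is unknown, no p-value was calculated, and each difference compares these libraries rather than the treatments. In whole seedlings, a change in the number of cells that express a gene and a change in RNA per cell cannot be told apart. The identifiers of these genes carry no annotation here from which markers of the tissue could be checked.

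Aux/IAA proteins repress auxin-responsive genes by binding auxin response factors (ARFs) and recruiting co-repressors of the TOPLESS family. When auxin is present, it joins the Aux/IAA protein to a receptor of the TIR1/AFB family, and the repressor is ubiquitinated and degraded. Many *Aux/IAA* genes are themselves induced by auxin, which forms a negative feedback loop. *IAA17*, also called *AXR3*, is a member of this family in *Arabidopsis*, where stabilised forms of the protein lead to agravitropic roots, few root hairs and altered auxin response. The roles of the separate *B. napus* copies are not known from these data.

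Levels are given in FPKM, a unit in which fragment numbers are corrected for transcript length and for the total of mapped fragments, so that levels of different genes can be compared per length. From the low values, the depth was estimated as 23700000 fragments for the control and 18300000 for the IAA library. The ratio of these depths was 1.30, and the most frequent ratio of low FPKM values, IAA library over control, was 1.29 (5083 genes). Each FPKM was turned into estimated fragments at that depth, and 95% exact intervals were calculated from them. The intervals cover counting error only, not the variation between pools of seedlings.

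*BnaA08.IAA.4* had the highest level of the 6 genes without IAA. It reached 38.1 FPKM in the control library (exact Poisson interval from 35.5 to 40.9, 768 estimated fragments) and 88.7 FPKM with IAA (from 84.1 to 93.5, 1380 fragments). The ratio of the libraries was 2.33, with an exact binomial interval from 2.13 to 2.55. The increase was larger than counting error, and the whole interval lay above 2-fold.

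*BnaA09.IAA.6* showed the largest change of the 5 genes for which a ratio could be given. Its level was 17.9 FPKM in the control library (interval from 16.2 to 19.8, 385 fragments) and 90.7 FPKM with IAA (from 86.1 to 95.4, 1505 fragments). This is a ratio of 5.06 (from 4.52 to 5.68). The gene thus went from less than the level of *BnaA08.IAA.4* to a level with an overlapping interval.

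*BnaA10.IAA.3* was at 8.99 FPKM without IAA (from 7.75 to 10.3, 190 fragments) and at 28.2 FPKM with IAA (from 25.6 to 30.8, 460 fragments), 3.13-fold higher (from 2.64 to 3.73). Its homeolog *BnaC05.IAA.3* was at 6.51 FPKM (from 5.44 to 7.73, 130 fragments) and 17.7 FPKM (from 15.7 to 19.9, 273 fragments), 2.72-fold higher (from 2.199 to 3.38). Both copies of this pair were more than 2-fold higher with IAA, and the lower ends of their intervals were above 2 as well.

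*BnaCX.IAA.3* had 3.69 FPKM without IAA (from 2.96 to 4.55, 87 fragments) and 5.37 FPKM after treatment (from 4.37 to 6.56, 98 fragments), a ratio of 1.46 with an interval from 1.08 to 1.97. For FPKM as given, that interval excludes both an unchanged level and a 2-fold increase as far as counting error goes. Its upper end is close to 2. With the IAA library rescaled to remove the median difference between the libraries, the log2 fold change went from 0.53 to 0.62 (0.1 FPKM added). The exclusion of a 2-fold increase therefore depends on the scaling. The gene model of *BnaCX.IAA.3* has a longer coding sequence than those of the other members and no transcribed sequence outside it, so that its FPKM depends on a different kind of model, and the part of this in its level was not tested. The table lists *BnaC08.IAA.6* at 0 FPKM without IAA and 0.0601 FPKM after treatment, the latter being 1 fragment at the estimated depth. A limit of 3 fragments corresponds to 0.139 FPKM in the control library and 0.180 FPKM in the IAA library, so that the gene was at or below the limit in both and no fold change can be given.

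**Figure D1:**
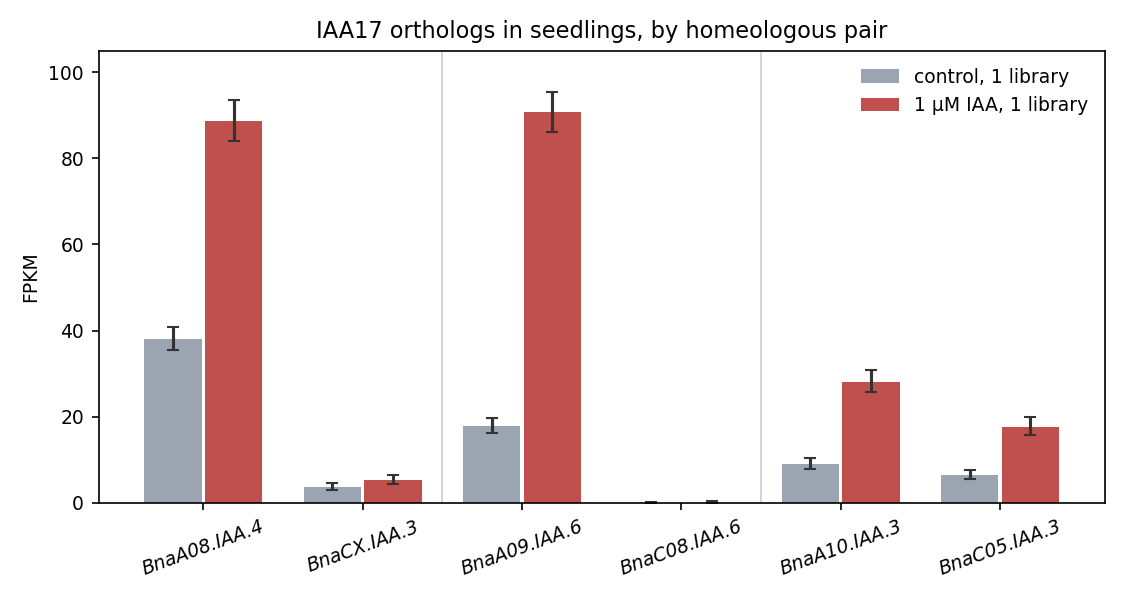
FPKM (vertical axis) of the 6 *IAA17* orthologs, grouped by homeologous pair, in the control library (grey) and the IAA library (red), 1 library each. Bars start at 0 and error bars are 95% exact Poisson intervals of the estimated fragments; *BnaA09.IAA.6* rises from 17.9 to 90.7 FPKM and reaches the level of *BnaA08.IAA.4*, whereas *BnaC08.IAA.6* stays near 0.

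In the control library the order of the levels was *BnaA08.IAA.4*, *BnaA09.IAA.6*, *BnaA10.IAA.3*, *BnaC05.IAA.3*, *BnaCX.IAA.3* and *BnaC08.IAA.6*, and no intervals of neighbours in this order overlapped, although those of *BnaA10.IAA.3* and *BnaC05.IAA.3* nearly touched. With IAA, *BnaA09.IAA.6* and *BnaA08.IAA.4* could not be ordered because their intervals overlapped. The other 4 genes kept the same order with separate intervals. Within each pair the An copy had the higher level in both libraries.

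Summed over the 6 genes, the level was 75.2 FPKM without IAA and 231 FPKM with IAA, a ratio of 3.07 (interval from 2.91 to 3.28 on the summed fragments). *BnaA09.IAA.6* accounted for 46.8% of the increase and *BnaA08.IAA.4* for 32.6%. *BnaA10.IAA.3* contributed 12.3%, *BnaC05.IAA.3* 7.19% and *BnaCX.IAA.3* 1.08%. The share of *BnaA08.IAA.4* in the summed level went from 50.7% to 38.5%, and that of *BnaA09.IAA.6* from 23.8% to 39.3%. The summed ratio depended on these genes and was 3.82 without *BnaA08.IAA.4* and 2.44 without *BnaA09.IAA.6*.

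To set the members beside all genes, log2 fold changes were calculated after 0.1 FPKM was added to both values, which understates the change of genes with low values. On this scale the change was 2.33 for *BnaA09.IAA.6*, 1.64 for *BnaA10.IAA.3*, 1.43 for *BnaC05.IAA.3*, 1.22 for *BnaA08.IAA.4* and 0.53 for *BnaCX.IAA.3*. Of the 6 genes, 4 were at least 2-fold higher with IAA, whereas 4.22% of the 63193 genes in the table were at least 2-fold higher. None of the 6 was at least 2-fold lower, against 8.68% of all genes. Among genes that reached 1 FPKM in either library, as 5 of the 6 members did, 4 members were at least 2-fold higher, against 2.51% of 43979 genes, and 0 members were at least 2-fold lower, against 4.86% of those genes. For these 5 members the median on the log2 scale was 1.43, beside -0.11 over the 43979 genes.

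Among the 15641 genes that reached 10 FPKM in either library, ordered by log2 fold change from the largest increase, *BnaA09.IAA.6* was at position 74. *BnaA08.IAA.4* was at position 226, and both genes reached 10 FPKM without IAA as well. *BnaA10.IAA.3* and *BnaC05.IAA.3* reached it in the IAA library only, so that a high position was partly fixed by the limit and none is given. *BnaCX.IAA.3* and *BnaC08.IAA.6* did not reach 10 FPKM in either library.

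Within the *Aux/IAA* family, 93 genes had values and 26 had none. Of the 87 family members other than the *IAA17* orthologs, 35 had at least 2-fold higher FPKM after treatment and 1 had at least 2-fold lower FPKM, with a median log2 fold change of 0.54. *IAA7*, *IAA14* and *IAA16* encode the closest relatives of IAA17 in *Arabidopsis*. Among their 10 orthologs with values, 1 was at least 2-fold higher and 0 were at least 2-fold lower, with a median of 0.34 on the log2 scale. Of the 5 orthologs of *IAA3* and *IAA4* with values, 3 were at least 2-fold higher (median 1.59). Of the remaining 72 genes with values, 31 were higher and 1 was lower (median 0.53). The summed level of the *IAA7* orthologs was 111 FPKM without IAA and 196 FPKM with IAA, a ratio of 1.77. For the *IAA16* orthologs the sums were 302 FPKM and 341 FPKM, a ratio of 1.13, and for the *IAA14* orthologs 7.11 FPKM and 7.74 FPKM, a ratio of 1.09. In FPKM, the 6 *IAA17* orthologs were thus below the 4 *IAA7* orthologs in the control library and above them with IAA. They were below the *IAA16* orthologs in both. The order with IAA differed on estimated fragments, where the *IAA7* orthologs were higher in both libraries (4044 against 1560 in the control, 4975 against 3717 with IAA). The gene model of 1 *IAA7* ortholog has 4810 bases, so that its 2459 estimated fragments with IAA gave 29.1 FPKM.

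The *IAA17* orthologs made up 4.35% of the summed FPKM of the family in the control library and 6.85% with IAA. Among the 26 sets of orthologs of an *Arabidopsis* gene with a level above 0 in the control, their sum was the seventh highest without IAA and the fifth highest with IAA. Ordered by log2 fold change from the largest increase, *BnaA09.IAA.6* was at position 15 of the 93 genes. *BnaA10.IAA.3*, *BnaC05.IAA.3*, *BnaA08.IAA.4* and *BnaCX.IAA.3* were at positions 24, 30, 39 and 50. No test of a difference between these groups of genes was possible.

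**Figure D2:**
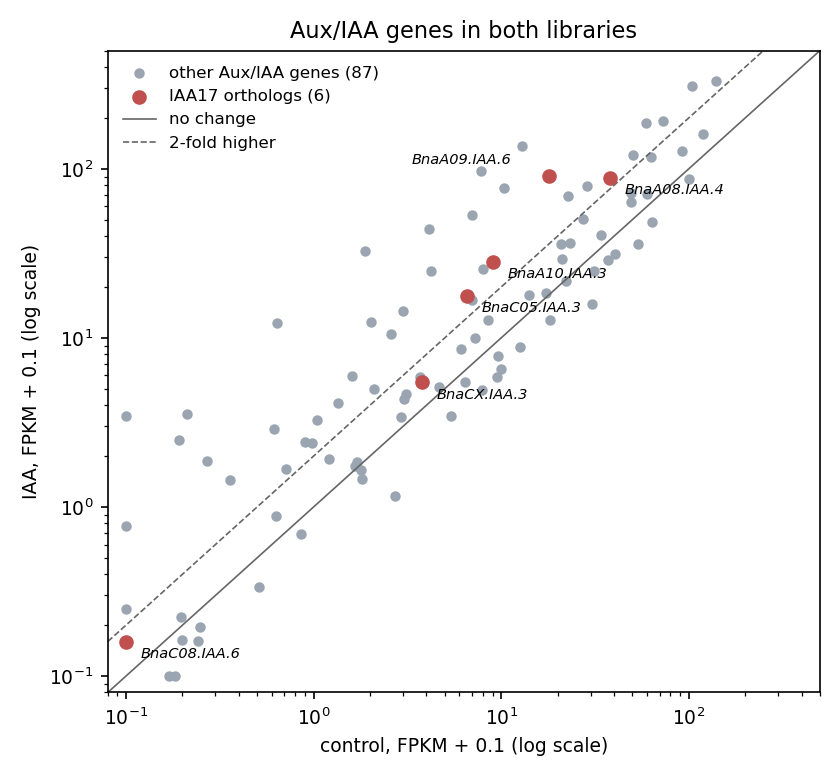
FPKM with 0.1 added in the control library (horizontal axis, log scale) and in the IAA library (vertical axis, log scale) of the 93 *Aux/IAA* genes with values, with the 6 *IAA17* orthologs in red and the other 87 genes in grey. The solid line marks no change and the dashed line a 2-fold increase; 4 of the *IAA17* orthologs lie above the dashed line, *BnaCX.IAA.3* lies between the lines, and *BnaC08.IAA.6* is in the lower left corner.

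The genes with the most similar values were found as the nearest *Aux/IAA* gene outside the set in the plane of the log2 values of both libraries (0.1 FPKM added), which rests on 2 libraries only. For *BnaA09.IAA.6* this was *BnaA09.IAA.7*, an *IAA3* ortholog, at a distance of 0.53 on the log2 scale. For *BnaA08.IAA.4* it was *BnaC01.IAA.4*, an *IAA2* ortholog at 28.5 FPKM and 79.4 FPKM (distance 0.45). *BnaA10.IAA.3* was nearest to *BnaC08.IAA.1*, an *IAA1* ortholog at 7.95 FPKM and 25.6 FPKM (distance 0.22). The genes nearest to *BnaC05.IAA.3* and *BnaCX.IAA.3* were *BnaC03.IAA.1* (an *IAA13* ortholog, distance 0.12) and *BnaA09.IAA.1* (an *IAA28* ortholog, distance 0.11). For *BnaC08.IAA.6* it was *BnaC07.IAA.2*, an *IAA32* ortholog that also had 0 FPKM without IAA. This last match rests on so few fragments that it says little about likeness.

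Homeologs were then compared with each other, which asks whether the copies of the A and C subgenomes differed in level and in change. For *BnaA10.IAA.3* and *BnaC05.IAA.3*, the An copy held 58.0% of the FPKM of the pair in the control library (interval from 52.3% to 63.5%) and 61.4% with IAA (from 57.7% to 65.0%). Its log2 fold change was larger than that of the Cn copy by 0.21, and the exact conditional interval of the ratio of ratios ran from -0.20 to 0.60, so that a difference in change was not detectable at this depth. For *BnaA08.IAA.4* and *BnaCX.IAA.3*, the An copy held 91.2% in the control (from 89.2% to 92.9%) and 94.3% with IAA (from 93.1% to 95.3%). Here the log2 fold change of the An copy was larger by 0.69, with an interval from 0.22 to 1.13. This interval lies above 0, which covers counting error and has no replicate check.

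For *BnaA09.IAA.6* together with *BnaC08.IAA.6*, nearly all of the expression in these libraries came from the An copy. The paper, using RNA-seq of separate tissues from an earlier study, describes both copies of this pair as highly expressed in leaf. The values here therefore apply to these seedlings and do not show that *BnaC08.IAA.6* is silent in other material. In the control library *BnaC08.IAA.6* had 0 fragments. The value of 3 fragments was 129-fold lower than the level of *BnaA09.IAA.6*, a ratio that leaves out the counting error of the latter. The An copy held 100% of the FPKM of the pair there (interval from 99.05% to 100%). With IAA *BnaC08.IAA.6* held 0.0662% of the FPKM of the pair (from 0.00168% to 0.369%, 1 fragment). A difference in change could not be calculated for this pair.

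As a comparison, 23 other homeologous pairs of *Aux/IAA* genes had at least 20 estimated fragments for each gene in each library. Their absolute differences in log2 fold change between An and Cn copies ranged from 0.03 to 0.89, with a median of 0.22. The interval lay above 0 for 5 of these pairs and below 0 for 3. With the *IAA17* pairs included, the difference between *BnaA08.IAA.4* and *BnaCX.IAA.3* was the third largest of 25, and that between *BnaA10.IAA.3* and *BnaC05.IAA.3* was close to the median. How Cufflinks assigned fragments shared by near-identical copies is not given in the sources used here, so the shares of homeologs are uncertain to that extent.

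In *Arabidopsis*, *IAA17* lies next to *IAA3*, and several members had an *IAA3* ortholog at the adjacent gene number. Gene identifiers of this genome run along each chromosome, so that consecutive numbers mark neighbouring genes. *BnaA09.IAA.7*, adjacent to *BnaA09.IAA.6*, had 22.7 FPKM without IAA and 68.6 FPKM after treatment, a ratio of 3.02 (from 2.59 to 3.53). The log2 fold change of the *IAA17* ortholog was larger than that of this neighbour by 0.74 (from 0.46 to 1.02). *BnaA10.IAA.2*, adjacent to *BnaA10.IAA.3*, was at 6.90 FPKM and 53.1 FPKM, a ratio of 7.69 (from 6.36 to 9.43). At this location the log2 fold change of the *IAA17* ortholog was lower, with a difference of -1.29 (from -1.68 to -0.92).

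*BnaC05.IAA.2*, adjacent to *BnaC05.IAA.3*, was at 2.49 FPKM and 10.5 FPKM, a ratio of 4.21 (from 2.88 to 6.30). The difference was -0.60 with an interval from -1.29 to 0.01, which includes 0. The gene with the larger change was therefore the *IAA17* ortholog on chromosome A09 and the *IAA3* ortholog on A10, and the copies on C05 were not separated by counting error. *BnaC08.IAA.5*, the *IAA3* ortholog adjacent to *BnaC08.IAA.6*, had no values. *BnaA08.IAA.4* and *BnaCX.IAA.3* had no *Aux/IAA* gene at an adjacent number.

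**Figure D3:**
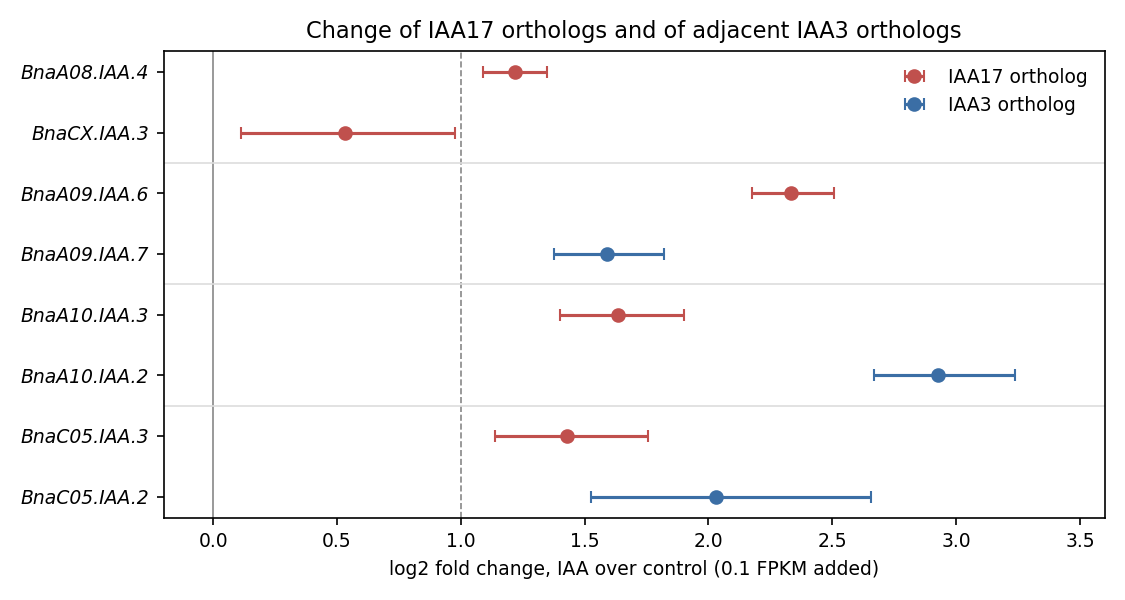
Log2 fold change with IAA relative to the control (horizontal axis, 0.1 FPKM added) of 5 *IAA17* orthologs (red) and of the 3 adjacent *IAA3* orthologs (blue), 1 library per condition, with neighbouring genes next to each other. Error bars are 95% exact binomial intervals of the estimated fragments, the solid line marks no change and the dashed line a 2-fold increase; the *IAA17* ortholog lies to the right of its neighbour on A09 and to the left of it on A10.

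The genes around each member were examined to see whether the members stood apart from their surroundings. Within 10 gene numbers on each side, 58 genes that were not *Aux/IAA* genes reached 1 FPKM in either library, and their median log2 fold change was -0.03. Of these, 1 was at least 2-fold higher and 2 were at least 2-fold lower, and all 3 were numbered near *BnaCX.IAA.3*, on sequence that is not placed on a chromosome and whose consecutive numbers may not be physical neighbours. The log2 fold changes of the 47 genes near the other members ranged from -0.43 to 0.79. Within 20 gene numbers on each side, changed genes also lay near placed members, with 2 at least 2-fold higher near *BnaA08.IAA.4* (up to 2.43 on the log2 scale), 2 near *BnaA09.IAA.6* (up to 1.87), 1 near *BnaA10.IAA.3* (1.17) and 1 near *BnaC05.IAA.3* (2.08). In this wider window 7 of 114 genes were at least 2-fold higher and 2 were at least 2-fold lower. A gene could be included through 1 library only, in which case its difference was partly fixed by the limit of 1 FPKM. In which library the added genes reached that limit was not examined. Over all 43979 genes that reached 1 FPKM in either library, 2.51% were at least 2-fold higher and 4.86% were at least 2-fold lower. Around *BnaA10.IAA.3*, 16 of the 20 gene numbers reached 1 FPKM in either library, and the highest of them was at 211 FPKM in the control. The corresponding numbers were 14 of 20 around *BnaC05.IAA.3*, 12 around *BnaA08.IAA.4*, 11 around *BnaCX.IAA.3* and 8 around *BnaA09.IAA.6*.

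Few genes around *BnaC08.IAA.6* had values, and those that did were low. Here 4 of the 20 gene numbers had values and the other 16 had none. Of those with values, 1 gene had at least 1 FPKM, at 3.30 FPKM in the control and 3.08 FPKM with IAA. Within 20 gene numbers on each side, 8 of 40 had values and still only 1 reached 1 FPKM. This is 2.5% of the gene numbers, compared with 52.5% (*BnaA09.IAA.6*) to 72.5% (*BnaC05.IAA.3*) on the placed chromosomes of the other members. These shares count gene numbers without values as not reaching 1 FPKM. The expression table holds 0 genes at 0 FPKM in both libraries, and whether gene numbers without values were unexpressed or unmeasured was not tested. By contrast, the genes around its homeolog *BnaA09.IAA.6* included 1 at 258 FPKM in the control and 223 FPKM with IAA.

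**Figure D4:**
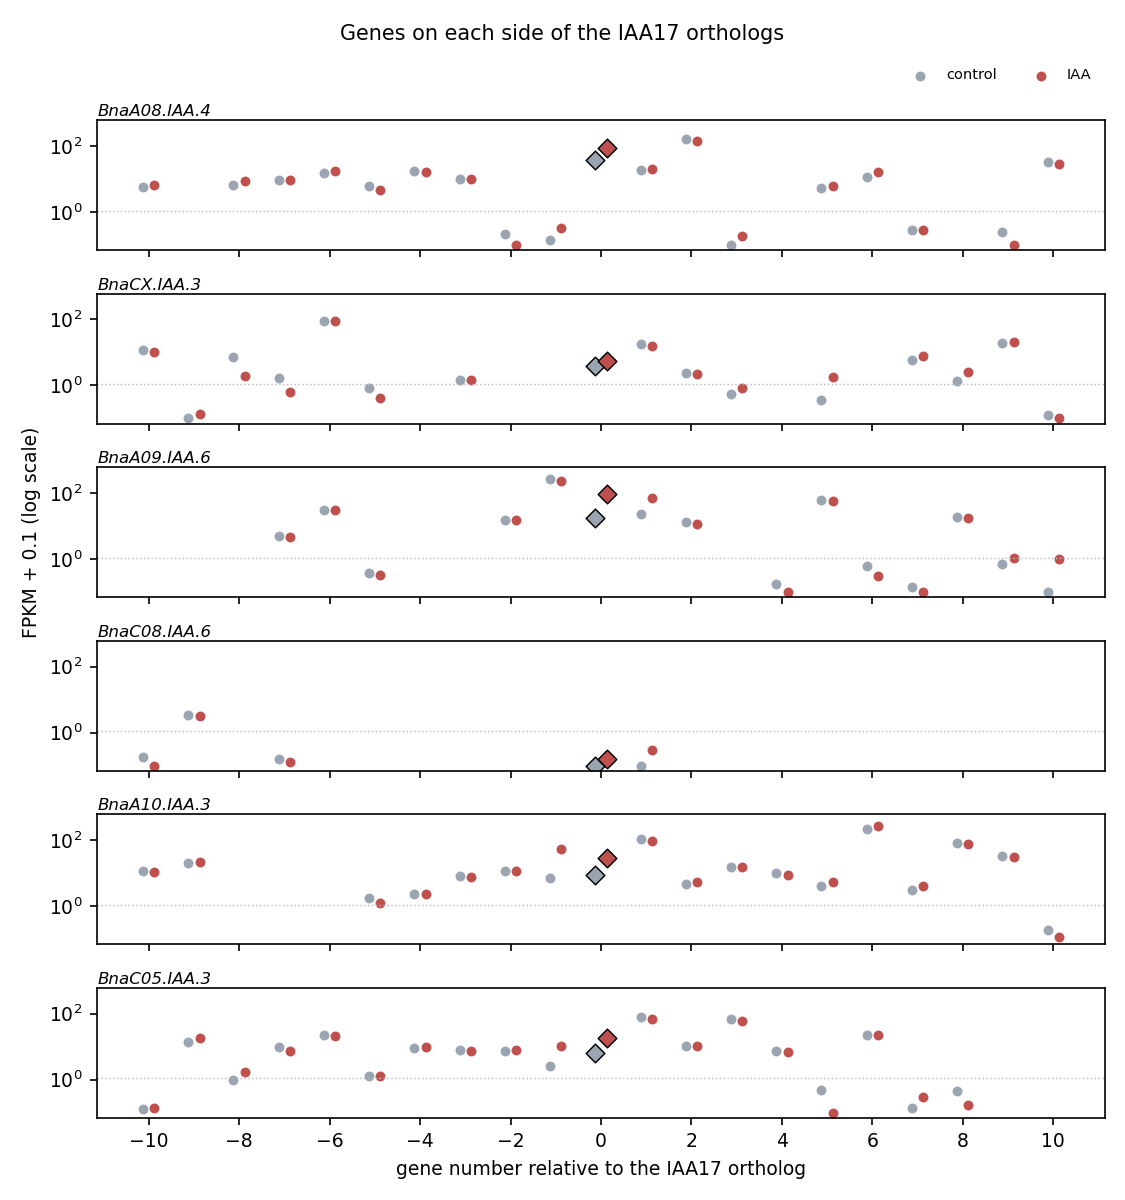
FPKM with 0.1 added (vertical axis, log scale) of the genes up to 10 gene numbers on each side (horizontal axis) of each *IAA17* ortholog, in the control library (grey) and the IAA library (red). Diamonds are the *IAA17* orthologs, points are genes with values and the dotted line marks 1 FPKM; most neighbours have grey and red points at similar heights, and around *BnaC08.IAA.6* only 1 gene reaches 1 FPKM.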

How the data were processed

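RNA-seq libraries of 1 control and 1 IAA-treated pool of seedlings were examined. Per the methods of the study and the labels, TruSeq libraries were sequenced, HISAT2 2.0.4 aligned the reads (reference: Darmor-*bzh*, v4.2) and Cufflinks 2.2.1 gave the FPKM of each gene that the authors deposited. The processing notes of the submitters also name bcl2fastq 2.18. How fragments that match several copies were assigned is not given in the sources used here.

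*IAA17* orthologs came from the ortholog assignment and gene models of the study. Estimated fragments were FPKM times the transcript length reduced by the mean fragment length, times depth. Depth and mean fragment length (195 bases in both libraries) were those that brought FPKM values under 0.6 of 14 *Aux/IAA* genes (control) and 8 (IAA) closest to whole fragments, with mean deviations of 0.0071 and 0.0030 fragments. Transcript lengths of the members ranged from 1038 to 1190 bases. Exact intervals at 95% were Poisson for levels, Clopper-Pearson for ratios and shares, and conditional for differences between genes. Genes were counted as higher or lower across all genes at a fold of 2, with 0.1 FPKM added and no test. The depth estimate and the intervals of ratios were tried on simulated Poisson counts. Levels for the depth estimate were simulated with the same formula that the estimate uses. These counts hold no spread between pools and no fragments shared by copies, so neither was checked.

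The rule for named genes was all members, the *Aux/IAA* genes at adjacent gene numbers, and for each member the nearest other *Aux/IAA* gene in both libraries. The genes near *BnaCX.IAA.3* in the closing section were named after their values were seen. Members, lists and rules were chosen with earlier results of these data known. Receptors, ARFs and other auxin-response genes were not examined because the reference table (assembly Da-Ae) does not pair their identifiers with names here. Sequences of the members were not used, and the start and end positions of the gene models served only to calculate transcript lengths. Python 3.11.15, numpy 2.4.6, pandas 2.3.3, scipy 1.17.1 and matplotlib 3.10.9 were used. Alternatives were other pseudocounts, filters, fold thresholds and scalings, and leaving out each member.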

Additional observations from a re-analysis of the deposited data

How the results depend on the processing

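No paired analysis was possible because there was a single library for either condition. The log2 fold changes of the 5 *IAA17* orthologs above the limit of 3 fragments stayed within their counting intervals in all 20 recalculations with other pseudocounts and scalings, and none changed sign. The median log2 ratio used for centring, over 39851 genes, was -0.09. The number of *IAA17* orthologs at least 2-fold higher was 4 and fell to 1, *BnaA09.IAA.6*, at a fold threshold of 4. It was 5 with a pseudocount of 0.01 FPKM or a fold threshold of 1.5, where the added gene was *BnaC08.IAA.6* with 1 fragment. At the threshold of 4, the number of other *Aux/IAA* genes went from 35 to 18. The summed ratio of the members was 3.82 without *BnaA08.IAA.4* and 2.44 without *BnaA09.IAA.6*. The share of all genes at least 2-fold higher, 4.22%, was 1.05% with a pseudocount of 1 FPKM, 6.82% with 0.01 FPKM, 2.51% among genes that reached 1 FPKM in either library, 1.66% with at least 0.5 FPKM in both, 8.92% at a threshold of 1.5 and 1.15% at 4, and the cause was not tested for the filters and pseudocounts. The share of all genes at least 2-fold lower, 8.68%, was 1.38% with a pseudocount of 1 FPKM and 14.4% with 0.01 FPKM, and higher genes made up 32.7%, 43.3% and 32.1% of the changed genes with pseudocounts of 0.1, 1 and 0.01 FPKM. Of the genes near the members, 3 were at least 2-fold changed within 10 gene numbers on each side and 9 within 20. Within 10 numbers, 0 were changed without those near *BnaCX.IAA.3*, an alternative chosen after seeing that all 3 lay there. No difference between homeologs was calculated for *BnaC08.IAA.6*, which had 0 and 1 estimated fragments.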

Other observations

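Near *BnaCX.IAA.3*, by gene number on unplaced C sequence, 3 genes differed at least 2-fold between the libraries. BnaCnng41270D was at 6.97 FPKM in the control and 1.85 FPKM with IAA, and BnaCnng41280D, the next number, was at 1.63 FPKM and 0.539 FPKM. BnaCnng41400D was at 0.258 FPKM in the control and 1.67 FPKM with IAA. BnaCnng41280D reached 1 FPKM in the control library only and BnaCnng41400D in the IAA library only, so that their differences were partly fixed by that limit. No fragments or intervals were calculated for these genes. They have no name in the sources used here, and their differences have no replicate check.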
